A study of Mus musculus with 35 samples.

Results

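The transcripts described here encode 9 solute carriers that move amino acids, lactate and pyrimidine nucleotides across cell membranes: Slc3a2, Slc7a5, Slc7a6, Slc1a5, Slc38a1, Slc38a2, Slc7a1, Slc16a1 and Slc25a33. They were chosen by name, with earlier results of these data known, as 9 of the 19938 genes that the arrays measured. Shares of all genes given beside them are therefore descriptions and no test of the 9 as a group. All 9 were found, each was read from 1 transcript cluster, and all 9 passed the filter on low values in every comparison. Only Slc38a1 had a further cluster, and the brighter of its clusters was used.

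The cells were type 1 conventional dendritic cells (cDC1), sorted by flow cytometry from mouse spleen and measured on 35 expression arrays in 4 sets. Set 1 held 5 arrays of MyclGFP/+ (heterozygous) and 4 of MyclGFP/GFP cells at steady state. Set 2 held 5 arrays of Mycl+/+ (wild-type, WT) and 5 of MyclGFP/GFP cells at steady state, and set 3 held 5 of each of these genotypes from mice given 100 µg of poly IC, a double-stranded RNA mimic, 5 h before. The Mxd1 set held 3 arrays of Mxd1+/+ and 3 of Mxd1-/- cells, all 18 h after the same dose of poly IC. MyclGFP/GFP cells carry GFP at both Mycl alleles and are called Mycl KO below. The labels give no strain, age or breeding of the mice and no Cre driver. Arrays of 1 group are named biological replicates there, but nothing says that each came from a mouse of its own, so p-values measure the spread between these arrays.

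Cells take up large neutral amino acids such as leucine in exchange for glutamine through heterodimers of the glycoprotein Slc3a2 with the light chain Slc7a5. Slc7a6 is another light chain of Slc3a2. Glutamine itself enters through sodium-coupled carriers, and leucine, arginine and glutamine feed protein synthesis and signal to the growth kinase complex mTORC1. MYC family proteins, which pair with MAX, are known in other cells to raise transcripts of several of these carriers, while Mxd1 pairs with MAX as a repressor. Mycl is a MYC family member that dendritic cells express, and the comparisons ask which transcripts depend on Mycl at rest and under poly IC, and on Mxd1 under poly IC.

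Values are log2 levels from the robust multi-array average (RMA) as deposited. The 4 sets were taken as normalised separately, so levels are compared within a set. A fold change is read against the rest of the transcripts on those arrays. In these bulk samples, fewer cells of a type and less RNA per cell cannot be told apart. The 12 cDC1 markers lay between the 66.3rd and the 99.9th percentile of all genes on every array. Mycl was lower in KO cells, with a log2 difference of -2.88 ± 0.08 (standard error, SE) in set 1 and -4.03 ± 0.07 in set 2 (limma adjusted p = 1.3e-08 and 1.07e-14). In set 3 the Mycl level was 9.03 to 9.81 on the WT arrays and 5.84, 5.99, 8.87, 5.52 and 6.14 on KO arrays 1 to 5, so KO array 3 went against its label. Mxd1 differed by -0.31 ± 0.11 between the arrays labelled Mxd1 KO and WT (adjusted p = 0.260), which did not check the label, and those arrays are called labelled Mxd1 KO throughout.

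**Figure D1:**
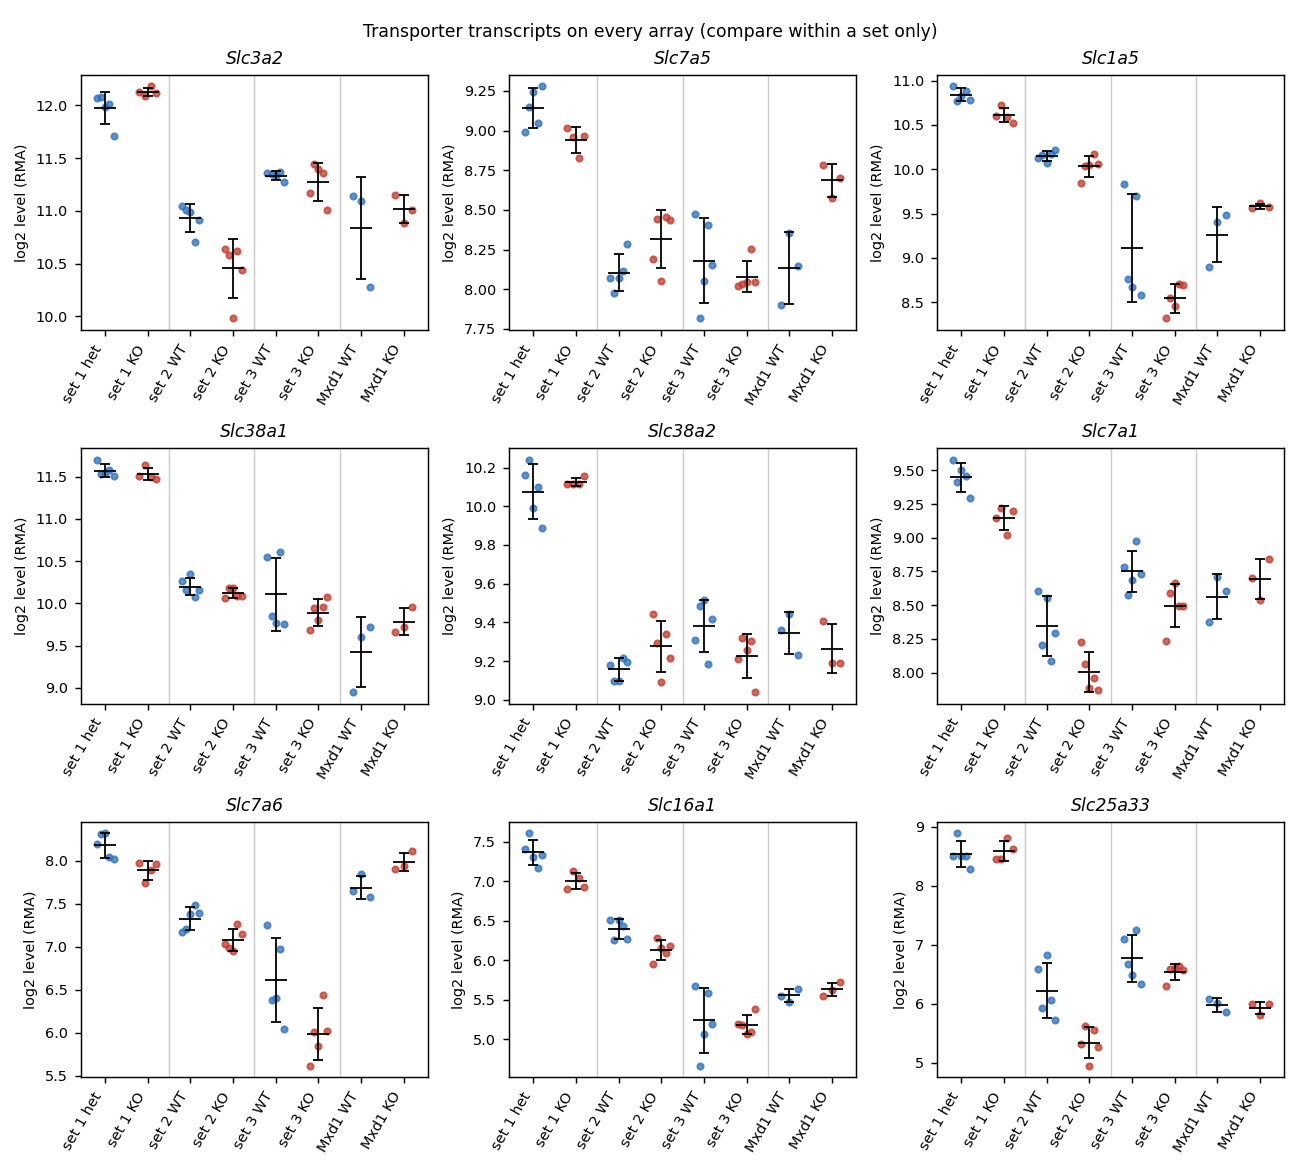
Log2 RMA level of each of the 9 transporter transcripts (y axis) on every array of the 8 groups (x axis). Points are arrays, blue for control and red for KO, horizontal bars are group means and error bars are the SD. Grey lines separate the sets, between which levels are not compared. In set 2 all 5 KO points of Slc3a2 and Slc25a33 lie below all 5 WT points.

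At steady state, transporters lay mostly lower in cells without Mycl, and which ones passed the test depended on the set. In set 2, 3 of the 9 transcripts fell (Slc3a2, Slc16a1 and Slc25a33) and 0 rose, against 2.36% of the 14012 genes tested that fell and 3.78% that rose. In set 1, 0 of the 9 passed, against 0.0214% of 14023 genes (3 genes, all lower in KO), and 5 of the 9 had an unadjusted p under 0.05 in the lower direction, against 8.45% of all genes. Below 0 lay 6 of the 9 in set 1 and 7 in set 2, against 48.7% and 47.1% of all genes. Over both steady-state sets in 1 fit, with the set as a block, 4 of the 9 fell (Slc1a5, Slc7a1, Slc7a6 and Slc16a1) and 0 rose, against 2.43% and 2.01% of 14639 genes. The median log2 difference of the 9 was -0.20 in set 1, -0.25 in set 2 and -0.18 over both, and that of all genes tested was 0.0029, 0.0078 and 0.0072.

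Slc3a2, the heavy chain that carries its light-chain partners to the plasma membrane, lies on chr19:8706882-8723369 of GRCm38.p6. In set 2 its level was 11.05, 11.00, 10.99, 10.71 and 10.91 on the WT arrays and 10.64, 10.58, 9.98, 10.62 and 10.44 on the KO arrays. The groups did not overlap, which held in this direction for 3% of all genes, and KO array 3 was the lowest of the 10. Slc3a2 fell by 0.48 ± 0.11 (1.39-fold; limma adjusted p = 0.0203), a call lost without WT array 1 (adjusted p = 0.0585) or WT array 2 (0.0508). In set 1 its level was 12.07, 12.08, 11.99, 12.02 and 11.71 on the heterozygous arrays and 12.12, 12.08, 12.18 and 12.12 on the KO arrays. Here the KO arrays lay just above the heterozygous ones with no overlap, as in 1.74% of all genes, and the difference of 0.15 ± 0.07 did not pass (adjusted p = 0.367). The difference between the KO effects, set 2 minus set 1, was -0.63 ± 0.15 and passed (adjusted p = 0.0385), against 0.253% of 14639 genes in that direction and 1.01% in both. It passed neither with the replicate number as a block (adjusted p = 0.119) nor with all 8 groups in 1 fit (0.177), nor without any 1 of 11 of the 19 arrays, so the difference between the sets is unsettled.

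Slc7a5 (chr8:121881146-121907686), the light chain that exchanges leucine and other large neutral amino acids for glutamine, showed no call in either set and pointed opposite ways. In set 1 the heterozygous arrays read 8.99, 9.15, 9.25, 9.05 and 9.28 and the KO arrays 9.02, 8.96, 8.83 and 8.97, a difference of -0.20 ± 0.07 (adjusted p = 0.252). In set 2 the WT arrays read 8.07, 7.97, 8.07, 8.12 and 8.29 and the KO arrays 8.19, 8.44, 8.05, 8.46 and 8.44, a difference of 0.21 ± 0.08 (adjusted p = 0.156). The groups overlapped in both sets. The set 2 difference passed without KO array 3 (0.28, adjusted p = 0.0458) and with array weights (0.28, 0.0340). The difference between the KO effects of set 2 and set 1 was 0.41 ± 0.12 (adjusted p = 0.0809), so these sets give no common direction for Slc7a5 (0.02 ± 0.07 over both).

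Slc7a6 (chr8:106168219-106198714) is a light chain that exchanges cationic amino acids such as arginine for neutral ones. In set 1 it read 8.20, 8.31, 8.32, 8.04 and 8.03 on the heterozygous arrays and 7.98, 7.74, 7.89 and 7.97 on the KO arrays. The KO arrays lay below without overlap, as 4 of the 9 transporters and 2.72% of all genes did in set 1. In set 2 it read 7.17, 7.21, 7.38, 7.49 and 7.40 in WT and 7.04, 6.99, 6.95, 7.26 and 7.15 in KO, and only KO array 4 reached into the WT range. The differences were -0.29 ± 0.08 (adjusted p = 0.185) and -0.25 ± 0.08 (0.0637), neither of which passed alone. The set 2 difference passed with quantile normalisation (adjusted p = 0.0384), with the replicate number as a block (0.0396) and without KO array 4 (0.0405). Over both sets Slc7a6 fell by 0.27 ± 0.06 (1.20-fold, adjusted p = 0.00726), a call lost with all 8 groups in 1 fit (0.290).

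Slc7a1 (chr5:148327410-148399904), the sodium-independent carrier of arginine, lysine and ornithine, likewise passed over both sets and in neither alone. In set 1 the heterozygous arrays read 9.58, 9.42, 9.51, 9.46 and 9.29 and the KO arrays 9.14, 9.22, 9.02 and 9.20. All KO arrays lay below all heterozygous arrays. In set 2 the WT arrays read 8.60, 8.20, 8.55, 8.09 and 8.29 and the KO arrays 8.23, 8.06, 7.89, 7.96 and 7.87, where KO array 1 overlapped with WT. The differences were -0.30 ± 0.06 (adjusted p = 0.128) and -0.34 ± 0.10 (0.0503). The set 2 difference crossed the threshold under 5 other settings and without KO array 1 or WT array 4, where the adjusted p was 0.0269 and 0.0291. Over both sets Slc7a1 fell by 0.33 ± 0.06 (1.25-fold, adjusted p = 0.00452).

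Of the glutamine and neutral amino acid carriers, only Slc1a5 passed at steady state, and only over both sets. Slc1a5 (chr7:16781334-16798274), the sodium-dependent exchanger of glutamine, serine and alanine, read 10.94, 10.77, 10.83, 10.89 and 10.78 on the heterozygous arrays of set 1 and 10.60, 10.73, 10.59 and 10.53 on the KO arrays. These groups did not overlap (-0.23 ± 0.05, adjusted p = 0.159). In set 2 the WT arrays lay between 10.07 and 10.22 and the KO arrays between 9.84 and 10.17 (-0.12 ± 0.06, adjusted p = 0.310). Over both sets it fell by 0.17 ± 0.04 (1.12-fold, adjusted p = 0.0252), a call lost with the replicate number as a block (0.0643) and with all 8 groups in 1 fit (0.626). Slc38a1 and Slc38a2, neighbouring genes on chr15 (96571418 to 96643438 and 96687392 to 96699728) for sodium-coupled carriers of glutamine, alanine and other small neutral amino acids, showed no call. Slc38a1 differed by -0.04 ± 0.05 in set 1 and -0.08 ± 0.06 in set 2, and Slc38a2 by 0.05 ± 0.07 and 0.12 ± 0.07. The 95% intervals of these 4 differences all lay between -0.21 and 0.26, so a larger change of either transcript was outside them in both sets. On 3 of the 4 KO arrays of set 1 Slc38a2 had the identical value of 10.12. Array pairs of that set shared 1987.08 equal values on average, against 14.69 in set 2.

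Slc16a1 (chr3:104638664-104658462), the proton-coupled carrier of lactate and pyruvate, was lower in Mycl KO in both sets. In set 1 it read 7.41, 7.61, 7.30, 7.17 and 7.33 on the heterozygous arrays and 6.90, 7.13, 7.04 and 6.93 on the KO arrays. The groups did not overlap, and the difference was -0.36 ± 0.08 (adjusted p = 0.149). In set 2 it read 6.50, 6.26, 6.51, 6.43 and 6.26 in WT and 5.95, 6.29, 6.16, 6.09 and 6.18 in KO. Here only KO array 2 overlapped with the WT arrays, and Slc16a1 fell by 0.26 ± 0.07 (1.20-fold, adjusted p = 0.0476). That call lay at the threshold: it was lost without KO array 1, 3, 4 or 5 or WT array 1, 3 or 4 (adjusted p 0.0657 to 0.120), without the filter (0.0614), with the replicate number as a block (0.0852) and with all 8 groups in 1 fit (0.279). Over both sets Slc16a1 fell by 0.31 ± 0.06 (1.24-fold, adjusted p = 0.00274), a call lost with all 8 groups in 1 fit (0.0698). The KO effects of the sets differed by 0.10 ± 0.11 (adjusted p = 0.701).

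Slc25a33, a carrier of the inner mitochondrial membrane that imports pyrimidine nucleotides, gave the largest difference of the 9 at steady state, in set 2 alone. It read 6.58, 5.92, 6.83, 6.06 and 5.72 on the WT arrays of set 2 and 5.32, 5.62, 4.95, 5.55 and 5.27 on the KO arrays. The WT arrays spread over more than a log2 unit and still did not overlap with KO. The KO values lay at the 33.3rd to 48.1st percentile of all genes on their arrays, and the WT values at the 49.5th to 67.5th. The lowest KO value, 4.95, was just above the filter levels of set 2 (4.77 to 4.85). Slc25a33 fell by 0.88 ± 0.18 (1.84-fold, adjusted p = 0.0108), and the call held without each single array (adjusted p 0.00412 to 0.0366). In set 1 it read 8.50, 8.89, 8.51, 8.50 and 8.29 on the heterozygous arrays and 8.46, 8.45, 8.81 and 8.63 on the KO arrays (0.05 ± 0.11, adjusted p = 0.857). The KO effects differed by -0.93 ± 0.24 between the sets (adjusted p = 0.0594), and over both sets the difference of -0.44 ± 0.15 did not pass (0.0998). Slc25a33 (chr4:149744036-149774267) lies on the same chromosome as Mycl (chr4:122995588-123002490), 26.7 Mb away, and the part of sequence linked to the targeted allele was not tested. Its closest paralogue, Slc25a36, differed by -0.05 ± 0.07 in set 1 and 0.14 ± 0.06 in set 2 (adjusted p = 0.781 and 0.165).

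**Figure D2:**
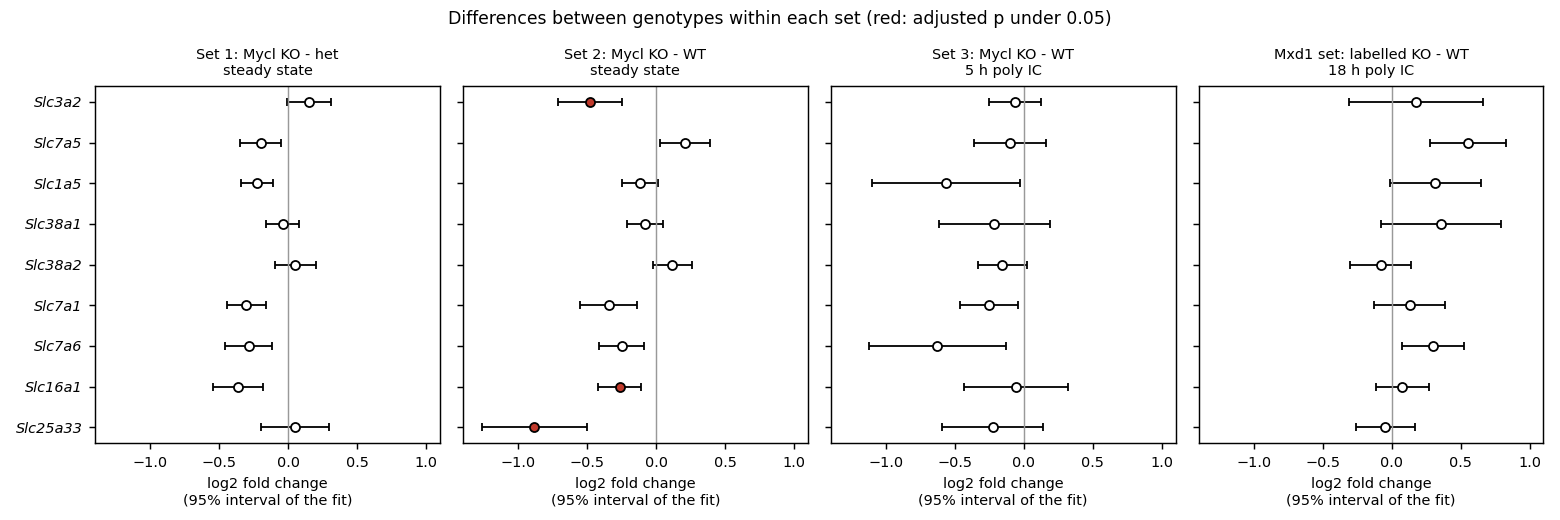
Log2 fold change (KO minus control, x axis) of each transporter (y axis) in the 4 comparisons, each within its own set. Points are estimates of the limma fit, bars are 95% intervals and red points passed at an adjusted p under 0.05. The red points are Slc3a2, Slc16a1 and Slc25a33 in set 2.

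The control cells of the steady-state sets differed in genotype, heterozygous in set 1 and WT in set 2, and the sets also differed in other transcripts beside the transporters. Myc, the MYC family member of most dividing cells, rose by 1.18 ± 0.11 in KO cells of set 2 (adjusted p = 7.85e-05) and differed by -0.01 ± 0.13 in set 1. In set 2 markers of other cell types also moved. Of the markers tested, 2 of 6 for cDC2 rose and 1 fell, as did 2 and 1 of 6 for plasmacytoid dendritic cells, 2 and 1 of 7 for monocytes and macrophages and 1 and 1 of 4 for B cells. Cd209a, a cDC2 marker, rose most, by 1.37 ± 0.25 (adjusted p = 0.00597). The mean level of the cDC2 list was 5.41 to 5.90 in KO and 5.37 to 5.62 in WT, and that of the monocyte and macrophage list 6.18 to 6.43 and 6.06 to 6.30. The ranges were 6.50 to 6.71 and 6.45 to 6.54 for the plasmacytoid list and 5.11 to 5.26 and 5.08 to 5.17 for the B cell list. Clec4a4, Clec10a, Adgre1, Mertk, Cd79a, Ebf1 and Fcer2a stayed below the filter on all arrays of set 2, as did 0 of the 12 cDC1 markers, of which 5 rose and 1 fell. Of the T and NK cell and the neutrophil markers 0 of 6 and 0 of 3 passed. The part of these cells in the transporter differences was not tested. In set 1, 0 markers of any list passed. Of the 12 cDC1 markers 11 lay above 0 and 1 below, against 48.7% of all genes below 0. An unadjusted p under 0.05 was found for 6 of the 12, all higher in KO, for which the share of all genes is not given here. In the lower direction it was found for 0 of the 12, against 8.45% of all genes. Over both sets 5 of the 12 cDC1 markers rose, as did 1 of the plasmacytoid, 1 of the B cell and 1 of the monocyte and macrophage list, while 1 of the cDC2 and 1 of the B cell list fell.

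The transporters were set beside lists of related genes, which were not tested as lists. Counts of calls, medians of some lists and the values of named genes are given. The other amino acid transporters of the plasma membrane had 0 calls among 17 tested in set 1 and 1 in set 2, where Slc1a4, a serine and alanine exchanger related to Slc1a5, fell by 0.27 ± 0.07 (adjusted p = 0.0394). Their medians were 0.05 and 0.04. Slc7a7 and Slc7a8, further light chains of Slc3a2, differed by -0.08 ± 0.06 and 0.01 ± 0.10 in set 2, and Slc7a11, the cystine exchanger that also pairs with Slc3a2, by 0.09 ± 0.08 (adjusted p 0.482 to 0.967). Among 11 lysosomal amino acid and peptide transporters, 3 rose in set 2, namely Slc36a1, which exports small neutral amino acids (0.45 ± 0.10), Slc66a1, which exports cationic ones (0.38 ± 0.08), and Slc38a7, which exports glutamine (0.26 ± 0.06; adjusted p 0.0139 to 0.0158). That list had a median of -0.08 and 0 calls in set 1, and a median of 0.04 in set 2.

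Among the monocarboxylate transporters, their partners and lactate dehydrogenases, Emb rose by 1.17 ± 0.16 in set 2 (adjusted p = 0.00101) and Slc16a6 fell by 0.46 ± 0.12 (0.0318), as 2 of 9 tested. Emb encodes embigin, a chaperone of monocarboxylate transporters, and Bsg encodes basigin, the usual partner of Slc16a1. Emb differed by -0.07 ± 0.16 in set 1, and the difference of 1.24 ± 0.25 between the KO effects passed (adjusted p = 0.0200). Bsg differed by -0.06 ± 0.05 in set 1 and -0.02 ± 0.06 in set 2, and Slc16a3, the lactate exporter of glycolytic cells, by 0.03 ± 0.04 and -0.01 ± 0.07 (adjusted p 0.561 to 0.934 for these 4 values). Of 27 other mitochondrial carriers, 3 fell in set 2, the ADP and ATP exchangers Slc25a4 and Slc25a5 (-0.21 ± 0.06 and -0.24 ± 0.06) and Slc25a39, a glutathione carrier (-0.26 ± 0.05; adjusted p 0.0139 to 0.0421). Slc25a39 also fell over both sets (-0.16 ± 0.04, adjusted p = 0.0278). Mpc1, a subunit of the mitochondrial pyruvate carrier, differed by 0.00 ± 0.07 in set 1 and -0.10 ± 0.06 in set 2 (adjusted p = 0.995 and 0.424).

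Of 31 genes through which mTORC1 senses amino acids, 3 rose and 1 fell in set 2. Rptor, the scaffold of mTORC1, rose by 0.34 ± 0.06 (adjusted p = 0.00446), Castor1, an arginine sensor, by 0.40 ± 0.09 (0.0156) and Nprl2, a subunit of an inhibitory complex, by 0.27 ± 0.06 (0.0205). Fnip1, a partner of folliculin, fell by 0.36 ± 0.10 (0.0386), and the leucine sensor Sesn2 differed by -0.35 ± 0.12 (0.0868). Of 16 genes of the response to amino acid shortage driven by the transcription factor ATF4, which several of the 9 transporters also answer, 1 fell in set 2. This was Chac1, which degrades glutathione, at -0.65 ± 0.10 (adjusted p = 0.00259), while Atf4 itself differed by -0.07 ± 0.07 (0.643). In set 1, 0 of 31 and 0 of 16 passed in these lists.

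**Figure D3:**
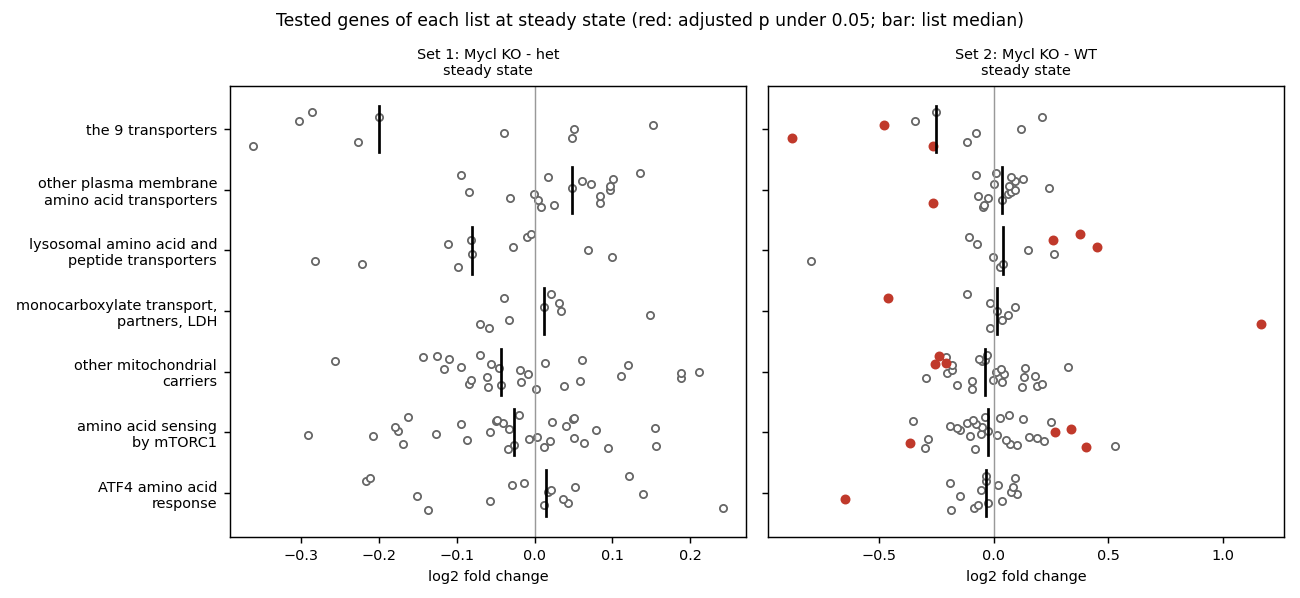
Log2 fold change (KO minus control, x axis) of every tested gene of the 9 transporters and 6 related lists (y axis) at steady state, in set 1 on the left and set 2 on the right. The x axes differ in range, red points passed at an adjusted p under 0.05 and black bars are list medians. The medians of the 9 transporters are -0.20 and -0.25, and those of the other plasma membrane amino acid transporters 0.05 and 0.04.

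Under poly IC for 5 h, all 9 transporters lay below 0 in Mycl KO cells of set 3, against 50.3% of the 14033 genes tested, and 0 of the 9 passed, against 0% of all genes by limma. The median of the 9 was -0.22 and that of all genes -0.0012. At an unadjusted p under 0.05, 1992 genes (14.2%) passed, and of the 9 transporters Slc1a5, Slc7a1 and Slc7a6 did, all lower, against 7.58% of all genes. The WT arrays of this set were not alike in their response to poly IC. The mean level of 11 interferon response genes was 7.32 on WT array 1 and 8.56 on WT array 4, 10.77 to 11.04 on the other WT arrays and 10.87 to 11.26 on the KO arrays. The differences below are therefore given with and without WT arrays 1 and 4, a choice made after these values were seen.

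Slc1a5 read 9.83 and 9.70 on WT arrays 1 and 4, 8.76, 8.67 and 8.58 on WT arrays 2, 3 and 5, and 8.32, 8.55, 8.46, 8.71 and 8.69 on the KO arrays. Its difference was -0.56 ± 0.24 with all arrays (adjusted p = 0.343) and -0.13 ± 0.10 without WT arrays 1 and 4 (0.762). Slc7a6 was similar, at 7.25 and 6.98 on WT arrays 1 and 4, 6.39, 6.41 and 6.04 on the other WT arrays and 5.62, 6.01, 5.84, 6.44 and 6.02 on the KO arrays. It differed by -0.63 ± 0.23 (adjusted p = 0.294) and by -0.29 ± 0.15 without them (0.594). In both transcripts the high WT values belonged to the arrays with a low interferon response.

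Slc38a1, Slc7a5, Slc16a1 and Slc25a33 likewise read highest on WT arrays 1 and 4. Slc38a1 read 10.55 and 10.61 there and 9.68 to 10.08 on the other 8 arrays, and Slc25a33 read 7.10 and 7.26 there and 6.31 to 6.68 on the others. The values were 8.47 and 8.41 against 7.82 to 8.25 for Slc7a5, and 5.68 and 5.59 against 4.67 to 5.38 for Slc16a1. With all arrays the 4 transcripts differed by -0.22 ± 0.18, -0.10 ± 0.12, -0.06 ± 0.17 and -0.23 ± 0.17 between KO and WT. Without WT arrays 1 and 4 all 4 changed sign, to 0.10 ± 0.09, 0.07 ± 0.09, 0.21 ± 0.11 and 0.04 ± 0.10, and none of these passed (adjusted p 0.625 to 0.941).

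Slc7a1 was also highest on WT arrays 1 and 4, by a smaller margin. It read 8.79, 8.57, 8.68, 8.98 and 8.73 on WT arrays 1 to 5 and 8.24, 8.59, 8.67, 8.50 and 8.49 on the KO arrays. It differed by -0.25 ± 0.10 (adjusted p = 0.306), by -0.17 ± 0.09 without WT arrays 1 and 4 (0.644), and by -0.30 ± 0.10 without KO array 3, the array with high Mycl (0.324). Slc38a2 read 9.31, 9.48, 9.52, 9.19 and 9.42 in WT and 9.21, 9.32, 9.26, 9.30 and 9.04 in KO. Slc38a2 and Slc3a2 did not have their highest values on WT arrays 1 and 4. For Slc38a2 these were the lowest of the WT arrays, and the difference was -0.16 ± 0.08 with them and -0.25 ± 0.08 without them (adjusted p = 0.382 and 0.320). Slc3a2 read 11.27 to 11.37 in WT and 11.00 to 11.44 in KO, a difference of -0.06 ± 0.09 with all arrays and -0.04 ± 0.10 without WT arrays 1 and 4 (adjusted p = 0.740 and 0.944).

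**Figure D4:**
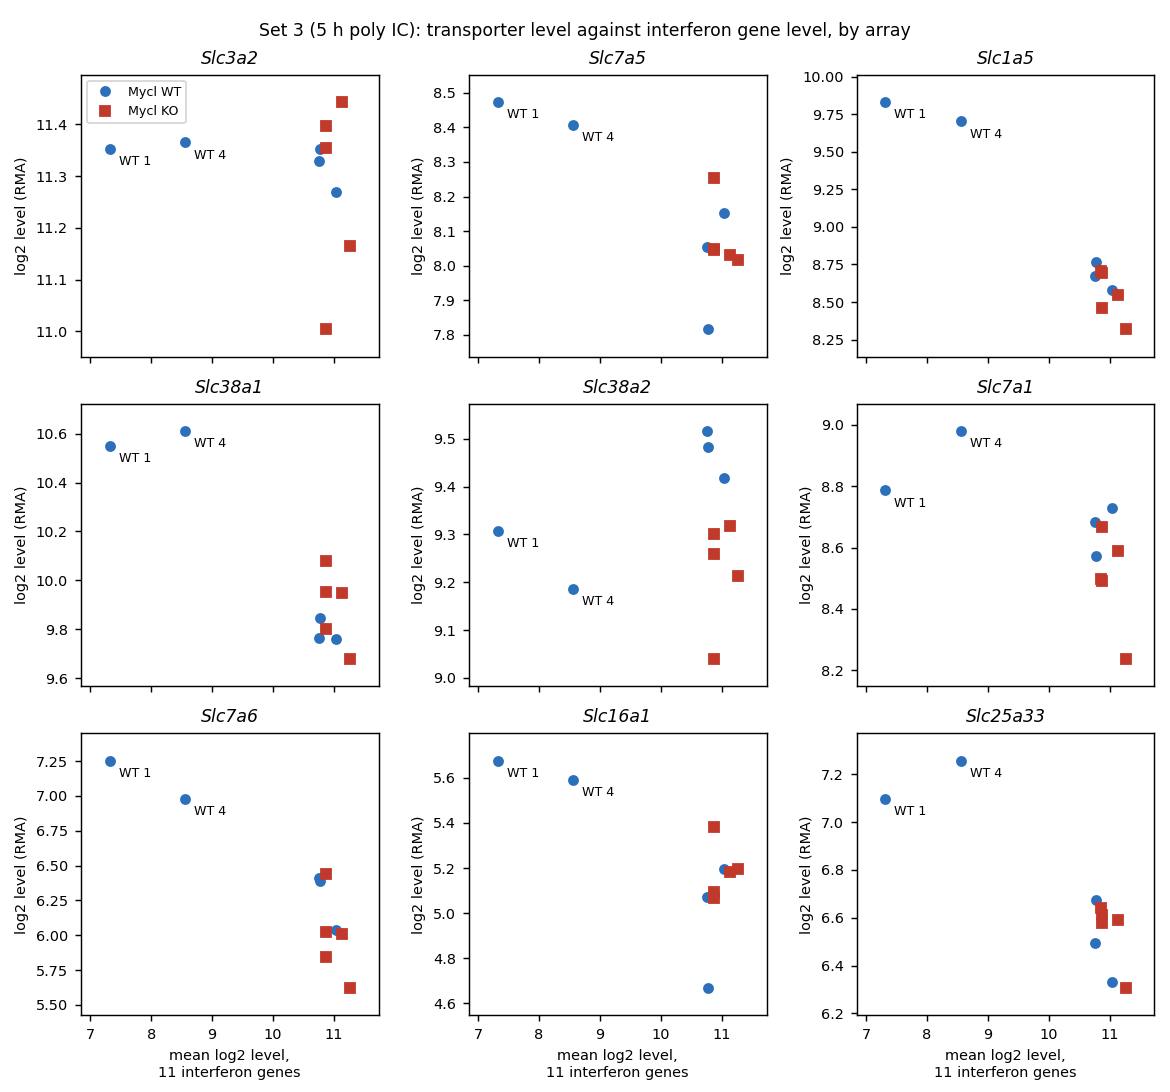
Log2 level of each transporter (y axis) against the mean log2 level of 11 interferon response genes (x axis) on the 10 arrays of set 3, 5 h after poly IC. Blue circles are Mycl WT and red squares are Mycl KO arrays. WT arrays 1 and 4, at interferon means of 7.32 and 8.56, carry the highest Slc1a5, Slc38a1, Slc7a6, Slc7a5, Slc7a1, Slc16a1 and Slc25a33 of the set.

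Other values moved with these arrays in set 3. The mean cDC1 marker level was 9.94 to 10.61 in WT and 9.90 to 10.07 in KO, and the mean of 6 neutrophil markers 4.99 to 5.74 and 5.29 to 6.07, with 0 calls in any marker list. The effects of Mycl loss in sets 3 and 2 were compared as set 3 minus set 2, a comparison that shares its arrays with both sets. All arrays of set 3 followed poly IC and all of set 2 were at steady state, so poly IC and set cannot be told apart. The KO effects of the 2 steady-state sets themselves differed in 1.01% of 14639 genes. Of the 9 transporters 0 passed, against 0.0205% of 14665 genes (3 genes). The differences were 0.42 ± 0.15 for Slc3a2 (adjusted p = 0.275), 0.66 ± 0.28 for Slc25a33 (0.332) and -0.27 ± 0.10 for Slc38a2 (0.292). Without WT arrays 1 and 4 Slc25a33 reached 0.93 ± 0.24 (adjusted p = 0.124), Slc16a1 0.47 ± 0.14 (0.174), Slc3a2 0.43 ± 0.16 (0.311) and Slc38a2 -0.37 ± 0.10 (0.151), with 0.276% of 14839 genes past the threshold. The lower Slc3a2 and Slc25a33 of resting KO cells in set 2, not seen in set 1, was thus not shown to be lost in set 3.

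In the Mxd1 set, 18 h after poly IC, 7 of the 9 transporters lay above 0 in the arrays labelled Mxd1 KO. The other 2 lay below 0, against 50.6% of the 14080 genes tested. Of the 9, 0 passed, against 0.071% of all genes (10 genes). The median of the 9 was 0.18 and that of all genes -0.0023. Slc7a5 read 7.90, 8.36 and 8.15 on the WT arrays and 8.78, 8.58 and 8.70 on those labelled KO. The groups did not overlap, as in 11.8% of all genes in this direction, and the difference was 0.55 ± 0.12 (1.47-fold, adjusted p = 0.153). It passed without WT array 2 (0.66 ± 0.11, adjusted p = 0.0341), when 568 genes passed in all, and with all 8 groups in 1 fit (0.0234).

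Slc7a6 read 7.65, 7.84 and 7.58 in WT and 7.91, 7.95 and 8.11 in labelled KO, and Slc1a5 8.90, 9.41 and 9.48 in WT and 9.56, 9.62 and 9.57 in labelled KO. Both were without overlap, at 0.30 ± 0.10 (adjusted p = 0.233) and 0.32 ± 0.14 (0.327), and WT array 1 set most of the distance in Slc1a5. Slc38a1 read 8.95, 9.61 and 9.71 in WT and 9.66, 9.72 and 9.96 in labelled KO (0.36 ± 0.19, adjusted p = 0.389). Slc3a2 read 11.14, 11.10 and 10.28 in WT, where array 3 stood apart, and 11.15, 10.89 and 11.00 in labelled KO (0.18 ± 0.21, adjusted p = 0.712). Slc7a1, Slc16a1, Slc38a2 and Slc25a33 differed by 0.13 ± 0.11, 0.08 ± 0.08, -0.08 ± 0.10 and -0.05 ± 0.09 (adjusted p 0.603 to 0.834).

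Asns, asparagine synthetase, was the 1 gene of 17 in the ATF4 list that passed in this set. It read 6.20, 6.29 and 6.30 in WT and 8.53, 9.21 and 8.32 in labelled KO, a rise of 2.42 ± 0.20 (adjusted p = 0.00521). Atf4 differed by -0.30 ± 0.10 and Sesn2 by 0.21 ± 0.13 (adjusted p = 0.246 and 0.446). Asns (chr6:7675165-7693209) lies on the chromosome of Mxd1 (chr6:86647044-86669234), and the part of linked sequence was not tested. In the lists of other plasma membrane, lysosomal, monocarboxylate and mitochondrial carriers and of mTORC1 sensing, 0 genes passed. The marker Spic, a macrophage transcription factor, fell by 1.14 ± 0.11 (adjusted p = 0.0197) as 1 of 6 tested of its list, whose mean was 6.37 to 6.51 in WT and 6.33 to 6.38 in labelled KO.

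Across all 35 arrays, each value taken relative to the mean of its set, the transporters followed different transcripts. Among 13024 genes, the closest by Pearson's r were Cluh, Fasn and Ppp5c for Slc1a5 (0.95, 0.95 and 0.94), Prmt3, Nop58 and Wdr75 for Slc7a6 (0.93, 0.90 and 0.90) and Rab7b, Arhgap25 and Cadm1 for Slc38a1 (0.92, 0.91 and 0.90). Without WT arrays 1 and 4 of set 3 these values were 0.77 to 0.84. For Slc25a33 the closest were Arih2, Cd14 and Kpna4 (0.92, 0.86 and 0.85), and for Slc3a2 they were Dennd4a, Zc3h12c and Tug1 (0.85, 0.85 and 0.84). Slc7a1 had Mycl as its closest transcript (0.76, and 0.74 without those WT arrays), with Ntmt1 and Lrrc47 next (0.75 and 0.75). The closest for Slc7a5 was Plxnb2 (0.85), for Slc16a1 Scd1 (0.76) and for Slc38a2 Scai (0.74). Between the transporters r was highest for Slc1a5 with Slc38a1 and with Slc7a6 (0.87 and 0.85). Without WT arrays 1 and 4 of set 3 these were 0.73 and 0.64, and Slc3a2 with Slc25a33 reached 0.68. Within set 2 Slc1a5 and Slc38a1 gave 0.14. For Slc3a2 with its light chain Slc7a5, r was -0.04 over all arrays, -0.81 within set 1, -0.25 within set 2 and 0.18 within set 3. The arrays share genotype groups and normalisation, so these values describe the arrays and have no test.

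The 250 bases before RefSeq start sites of these genes were searched for CACGTG, the E-box letters that MYC and MAX dimers bind. These letters read the same on both strands. RefSeq (GRCm38.p6) windows were at hand for 6 of the 9 genes, in 8 windows: Slc3a2, Slc38a2, Slc7a1, Slc7a6, Slc16a1 and Slc25a33. The window of Slc3a2 (chr19:8713898-8714147) lies inside its gene span given above. So do the overlapping windows of Slc7a6 (chr8:106168604-106168853 and chr8:106168671-106168920) and the Slc7a1 window at chr5:148392816-148393065. The letters stood in 2 of the 8 windows (25.0%), those of Slc16a1 and Slc25a33. They stood in 6.02% of all 32851 windows and 7.77% of those of tested genes. By gene these were 2 of 6 transporters, against 1093 of 11917 tested genes with a window. Slc16a1 and Slc25a33 both fell in set 2, but their windows are shown because CACGTG stood in them. They run 5′ to 3′ on the strand of the gene, with CACGTG in capitals. Relative to the start, it lies at -200 to -195 in Slc16a1 (chr3:104638414-104638663, plus strand) and at -8 to -3 in Slc25a33 (chr4:149774268-149774517, minus strand).
Slc16a1: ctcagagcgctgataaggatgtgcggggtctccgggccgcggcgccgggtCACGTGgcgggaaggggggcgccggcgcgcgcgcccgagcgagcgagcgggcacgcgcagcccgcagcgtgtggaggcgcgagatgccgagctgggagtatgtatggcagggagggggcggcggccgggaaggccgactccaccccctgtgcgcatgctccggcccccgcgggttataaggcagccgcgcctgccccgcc
Slc25a33: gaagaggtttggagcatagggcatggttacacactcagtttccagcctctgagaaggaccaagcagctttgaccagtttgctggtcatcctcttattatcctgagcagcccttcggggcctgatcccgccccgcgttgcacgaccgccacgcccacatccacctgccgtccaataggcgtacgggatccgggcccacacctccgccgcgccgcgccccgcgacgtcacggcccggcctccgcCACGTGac
Slc3a2, which also fell in set 2, and Slc7a1 and Slc7a6, which fell over both sets, had no CACGTG in their windows. The stretches before the gene spans of Slc3a2 and Slc7a6 were not searched, so no absence of CACGTG is shown there. The letters TGATGNAAN, the element bound by ATF4 with CEBP partners, were searched on both strands. They stood in 0 of the 8 windows, in 3.44% of all windows and in 2.14% of those of tested genes. Bases outside these windows were not searched, so no absence of TGATGNAAN is shown there. A match is a description of the letters, and no binding was measured here.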

How the data were processed

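RNA of sorted cDC1 was hybridised to Affymetrix arrays in 8 groups of 3 to 5. The deposited log2 values were made by the authors with the Affymetrix Expression Console and RMA, per the submitters' processing notes (no versions given). The table holds 35556 transcript clusters, of which 21789 had 1 gene symbol in the platform annotation. They gave 19938 genes, and of several clusters per gene the one with the highest mean was used. The 4 sets were taken as normalised separately, since array medians were 6.50 to 6.57 in set 1 and 5.47 to 6.01 in the others. RMA leaves a shift shared by all transcripts out of view, and no spike-in features were used here. The number of arrays limits the precision.

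A gene was kept where it reached its array's 30th percentile on a number of arrays equal to the smaller group's size or more. The test was limma 3.58.1 (lmFit, then eBayes, in R 4.3.3), always two-sided; p-values were adjusted by Benjamini and Hochberg's method across the genes kept, and the threshold was 0.05. The scripts were tested on simulated data. Named genes were the 9 transporters, up to 4 genes past the threshold per related list and comparison, and further genes of these pathways whatever their values (among them Mpc2, not analysed here). Markers and closest transcripts were named as well, Cd209a after its values were seen. The members and lists were chosen with earlier results of these data known. Alternatives were no filter, quantile normalisation, 1 fit of all groups, array weights, the replicate number as a block, the mean of all clusters, a variance trend with robust prior, and each array left out.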

Additional observations from a re-analysis of the deposited data

Results flagged for a closer look

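Single arrays stood apart from their group in 6 cases by Dixon's criterion, which flags about 1 in 20 groups by chance. They were Slc3a2 at 11.71 and Mycl at 9.65, both on heterozygous array 5 of set 1, Slc38a2 at 10.16 on KO array 4 of set 1, where the other 3 KO arrays held 1 identical value, and Slc7a5 at 8.25 on KO array 4, Slc25a33 at 6.31 on KO array 1 and Mycl at 8.87 on KO array 3 of set 3.

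The difference between the effects of Mycl loss in the steady-state sets (set 2 minus set 1, limma adjusted over all genes) passed the threshold for 6 named genes. It was -0.63 for Slc3a2 (adjusted p = 0.0385), which is unsettled, since it passed neither with the replicate number as a block (0.119), nor with all 8 groups in 1 fit (0.177), nor without any 1 of 11 of the 19 arrays. It was 0.37 for Rptor (0.0385), -0.69 for Chac1 (0.0220), 1.24 for Emb (0.0200), -1.15 for Mycl (1.02e-05) and 1.19 for Myc (0.00324). The controls were heterozygous in set 1 and WT in set 2.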

How the results depend on the processing

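Of the 1314 transporter fold changes recomputed under another setting or without 1 array, 36 changed sign, 29 lost the call and 23 gained it; in each of the 36 the transporter was uncalled both ways. Slc25a33 in set 1 changed sign with the replicate number as a block (-0.015). In set 3 array weights turned Slc7a5 (0.10), Slc38a1 (0.026) and Slc16a1 (0.23), and leaving out WT arrays 1 and 4 and KO array 3, chosen after seeing the data, turned Slc7a5 (0.079), Slc38a1 (0.12), Slc16a1 (0.24) and Slc25a33 (0.029), as without WT arrays 1 and 4 alone (0.072, 0.10, 0.21 and 0.045). Over both steady-state sets array weights turned Slc7a5 (-0.0060). For set 3 minus set 2, Slc38a1 turned with array weights (0.12), with the mean of its clusters (0.021) and without these 2 or 3 arrays of set 3 (0.18 and 0.20), and Slc1a5 without the 3 (0.012). For set 2 minus set 1, quantile normalisation turned Slc7a6 (-0.039). Leaving out 1 array turned Slc25a33 in set 1 (-0.026 to 0.14), Slc16a1 (-0.20 to 0.053) and Slc3a2 (-0.10 to 0.0064) in set 3, Slc25a33 (-0.11 to 0.012) and Slc3a2 (-0.10 to 0.33) in the Mxd1 set, Slc7a5 over both sets (-0.012 to 0.052), and Slc7a6 (-0.016 to 0.075) and Slc7a1 (-0.11 to 0.022) for set 2 minus set 1.

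Without 1 array at a time, 1 to 7 genes passed in set 1, 408 in set 2 (without WT array 1, when 1 transporter fell, Slc25a33) to 1007 (at most 3 lower and 0 to 1 higher transporters), 0 to 2 in set 3, 3 to 568 in the Mxd1 set (568 without WT array 2; 0 to 1 higher transporters), 1 to 30 for set 3 minus set 2, and 31 to 317 for set 2 minus set 1 (0 to 2 transporters lower, 0 to 1 higher). The 4 transporters that fell over both sets fell without each single array.

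The count of genes called moved with the setting. In set 1 (3 genes) it was 6 with quantile normalisation, 141 with array weights, under which 2 transporters fell (Slc1a5 and Slc7a1), and 1 with the block. In set 2 (861) it was 358 with all groups in 1 fit, and with array weights 1 transporter rose (Slc7a5). In set 3 (0) it was 1 without the filter, 1910 with all groups in 1 fit (2 transporters fell, Slc1a5 and Slc7a6), 72 with array weights, 1 with the block, and 10 and 63 without the 2 or 3 arrays. In the Mxd1 set (10) it was 235 with all groups in 1 fit (1 transporter rose, Slc7a5), 18 with weights and 16 with the block. Over both sets (649) it was 159 with all groups in 1 fit, where 1 transporter fell (Slc7a1). For set 3 minus set 2 (3) it was 181 with all groups in 1 fit, 74 with weights, 9 with the variance trend, and 41 and 51 without the 2 or 3 arrays. For set 2 minus set 1 (148) it was 15 with all groups in 1 fit and 30 with the block, where 0 transporters passed in each, and 584 with weights (2 lower and 1 higher). The cause was not tested. Same-numbered arrays correlated at -0.40 to 0.35, so the number is no pairing; the block, which leaves heterozygous array 5 of set 1 without a partner, also ended the set 2 call of Slc16a1 (adjusted p = 0.0852) and that of Slc1a5 over both sets (0.0643), and made calls of Slc7a1 and Slc7a6 in set 2.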
